A study of Homo sapiens with 16 samples.

Results

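The clustered histone genes are the genes that lie in the histone gene clusters of the genome, whose symbols in the table of counts begin with HIST1H, HIST2H, HIST3H or HIST4H. Rows were chosen by these 4 prefixes and by a summed count of at least 50 over all 16 libraries, which 59 of the 69 such rows among 23354 rows reached. They comprised 6 genes of the linker histone H1, 13 of H2A, 18 of H2B, 11 of H3 and 11 of H4. The HIST1 cluster held 50 of them, between 26017260 and 27861669 on chromosome 6 in hg19, the build named in the submitters' processing notes. HIST2 held 6, HIST3 held 2 and HIST4 held 1, and 1 row, HIST2H2BC, is named as a pseudogene. Because the summed count selected the rows, their levels are given as a description. The rows just inside were HIST1H1T with 75 counts, HIST1H4F with 208 and HIST2H2BC with 221, and those just outside were HIST2H2BA with 28, HIST1H4L with 15 and HIST1H4G with 5.

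The libraries came from the human multiple myeloma cell lines MM1S, which is sensitive to glucocorticoids, and MM1R, its resistant counterpart. Each line had 4 groups, all collected at 48 h: a vehicle control (Veh), a TAK-981 group (TAK, 0.1 μM), a dexamethasone group (Dex, 1 μM) and a group given the pair of agents at these doses (combo). TAK-981 inhibits the SUMO E1 enzyme, which starts the attachment of SUMO to proteins, and Dex activates the glucocorticoid receptor. Total RNA depleted of ribosomal RNA was sequenced, with 2 libraries in each of the 8 groups. Library totals ran from 15707587 to 24796539 counts. Of 8 plasma cell markers, 7 lay above 100 CPM (counts scaled to a common library size) in every library, among them SDC1 at 495 to 973 CPM, and CD38 lay at 6.74 to 44.9 CPM. The summed level of 8 markers of other cell types was 1.55 to 6.81 CPM, with the T cell gene CD3D at 0 and the B cell gene MS4A1 at no more than 0.124 CPM.

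Most histone proteins are made in S phase, when new DNA must be packed into chromatin, from genes of this kind. H2A, H2B, H3 and H4 form the nucleosome core and H1 binds the linker DNA between cores. Their mRNAs are unusual in that they end in a short stem-loop in place of a poly(A) tail; the protein SLBP binds this stem-loop and is needed for their processing and translation, and the mRNAs decay when DNA synthesis stops. RNA kept by ribosomal depletion includes them, whereas selection of poly(A) RNA would lose most of them. In bulk RNA, a smaller share of cells in S phase and less histone RNA in each cell cannot be told apart.

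The stem-loop is shown first because it is the feature that sets these mRNAs apart from other mRNAs. GENCODE transcripts ran at least 60 bases past the coding part for 25 of the genes, and 23 of these 25 held a stem-loop within the 120 bases searched. The search asked for 16 bases that begin with GG and end with CC, whose outer 6 bases pair, with T opening the loop and again after its next base. HIST1H1E and HIST1H2BJ had no match. The lines below give, from GENCODE release 29 on GRCh38, the stem and loop in capitals with the 5 bases on each side, for abundant genes of the core classes and for 3 genes (HIST1H2BE, HIST1H3E and HIST4H4) whose levels departed from the rest.
HIST1H2AE: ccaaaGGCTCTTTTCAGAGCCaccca
HIST1H2BH: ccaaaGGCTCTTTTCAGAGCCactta
HIST1H2BE: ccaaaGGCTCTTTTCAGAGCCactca
HIST1H3G: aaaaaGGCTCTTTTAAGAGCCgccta
HIST1H3E: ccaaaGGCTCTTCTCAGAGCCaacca
HIST1H4E: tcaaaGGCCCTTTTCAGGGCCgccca
HIST4H4: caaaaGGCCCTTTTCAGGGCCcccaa
The stems of the H2A, H2B and H3 genes shown began with GGCTCT and those of the H4 genes with GGCCCT. Between the 6 bases of each arm, the 4-base loop was TCTC in HIST1H3E, TTTA in HIST1H3G and TTTC in the others shown. In GENCODE, HIST4H4 and HIST1H3E, which did not follow the other genes after TAK-981, carried the stem-loop too. The 3′ ends of the RNA in these libraries were not examined.

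RefSeq promoter windows of 300 bases (GRCh38.p14) were matched to 48 of the genes. The octamer ATTTGCAT, a known element of H2B promoters bound by OCT1, was sought on either strand of the window. It lay in a window of 19 of the 48 genes (39.6%) and of 2.19% of all 27305 genes with promoter windows. It was found in 10 of 12 H2A, 8 of 12 H2B and 1 of 9 H3 genes, and in 0 of 6 H1 and 0 of 9 H4 genes. For 10 of the 19 genes the window overlaps that of another of them, in 5 pairs, so that 1 site can count for both genes of a pair. The H3 gene, HIST1H3D, was counted through a window it shares with HIST1H2AD, and its other window held no octamer. CCAAT was present in 85.4% of the 48 genes against 39.7% of all genes with promoter windows. It was found in 2 of 9 H4 genes and every matched gene of the other classes. TATAAA was present in 64.6% against 14.0%. None of these motifs contains another, and matches were counted on both strands. The windows below belong to HIST1H2AE, which held all 3 motifs, to HIST1H3B, the H3 gene with the most RNA, and to HIST4H4, which stood apart after TAK-981; motif matches are in capitals.
HIST1H2AE: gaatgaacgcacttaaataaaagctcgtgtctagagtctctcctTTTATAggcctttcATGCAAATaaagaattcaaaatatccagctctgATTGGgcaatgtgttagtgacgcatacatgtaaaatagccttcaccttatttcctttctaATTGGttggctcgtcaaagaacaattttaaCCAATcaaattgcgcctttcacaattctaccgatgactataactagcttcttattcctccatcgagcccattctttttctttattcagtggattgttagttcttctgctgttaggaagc
HIST1H3B: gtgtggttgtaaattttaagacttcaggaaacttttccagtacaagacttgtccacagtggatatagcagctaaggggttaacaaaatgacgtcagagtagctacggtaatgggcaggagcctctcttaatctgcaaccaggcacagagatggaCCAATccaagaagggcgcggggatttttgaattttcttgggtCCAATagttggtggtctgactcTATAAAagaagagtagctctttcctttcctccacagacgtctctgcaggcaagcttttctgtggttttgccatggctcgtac
HIST4H4: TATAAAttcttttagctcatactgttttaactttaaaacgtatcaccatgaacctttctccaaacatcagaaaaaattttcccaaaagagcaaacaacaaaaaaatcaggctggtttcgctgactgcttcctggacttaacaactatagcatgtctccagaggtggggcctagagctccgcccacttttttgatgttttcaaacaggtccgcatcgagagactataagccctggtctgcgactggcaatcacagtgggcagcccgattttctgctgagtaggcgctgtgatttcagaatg
The window of HIST1H2AE lies at chr6:26216671-26216970 on the plus strand of GRCh38.p14. That of HIST1H3B lies at chr6:26032050-26032349 and that of HIST4H4 at chr12:14771082-14771381, both on the minus strand. In the HIST4H4 window the capitals mark TATAAA at the far upstream end, and neither the octamer nor CCAAT was found there.

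The histone genes together held 0.623% and 0.613% of all counts in the 2 MM1S Veh libraries. They held 0.306% and 0.348% after TAK-981, 0.304% and 0.368% after Dex, and 0.171% and 0.172% after the combo. In MM1R they held 0.804% and 0.805% with Veh, 0.455% and 0.475% with TAK-981, 0.750% and 0.845% with Dex, and 0.480% and 0.503% with the combo. The MM1S groups under any treatment thus lay below MM1S Veh without overlap, whereas the MM1R Dex libraries lay on either side of MM1R Veh. These shares describe the libraries and were not tested.

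**Figure D1:**
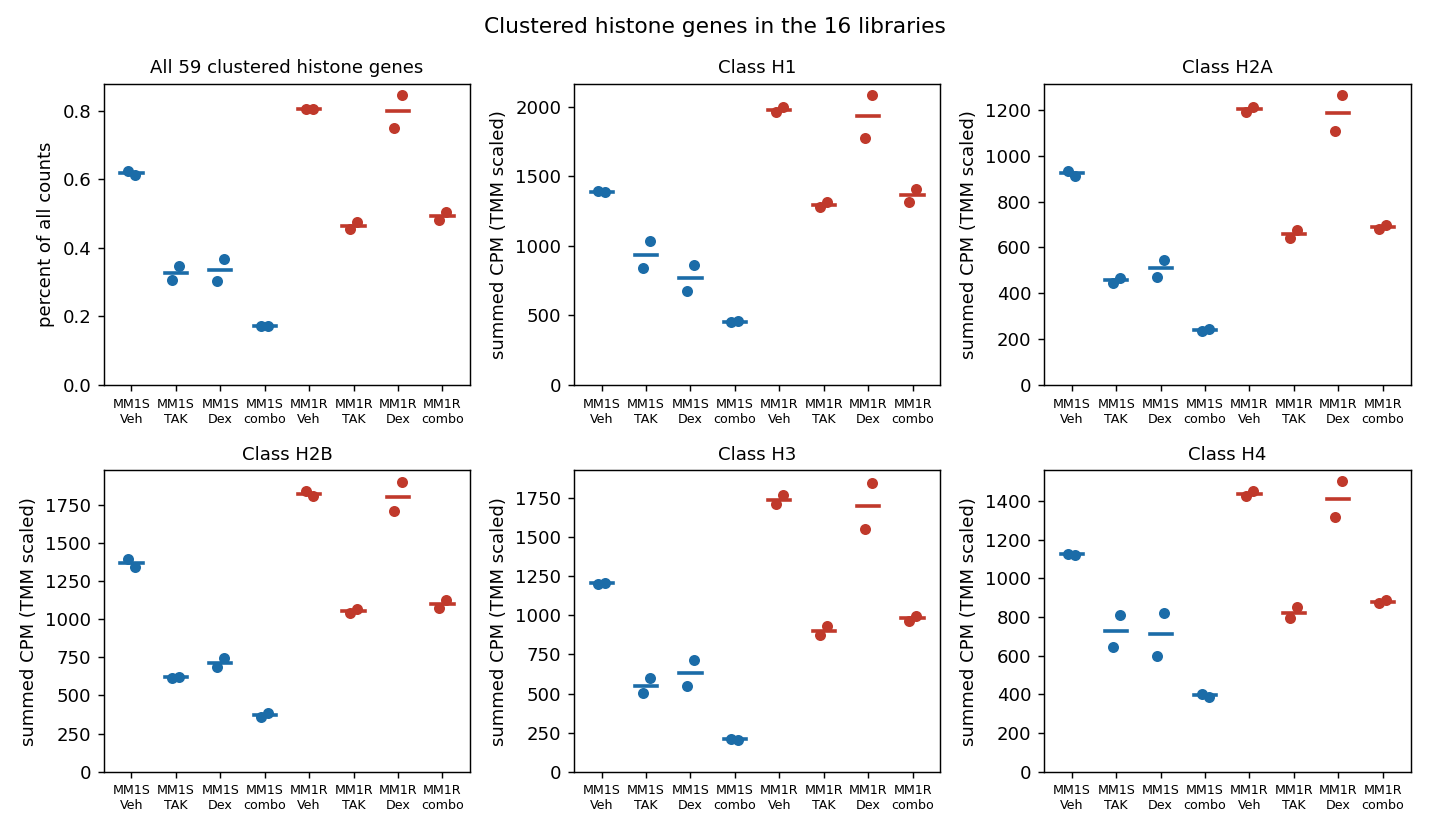
Level of the clustered histone genes in each library, as the percent of all counts for the 59 genes and as summed CPM for each class (y axes), by cell line and treatment (x axes). Points are libraries and bars are means of 2; MM1S combo was lowest at 0.171% and 0.172%, and the MM1R Dex libraries stood at 0.750% and 0.845%.

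Levels between genes were compared per kb of the length given in the table, since all but 3 of the genes were shorter than 1 kb and their median length was 0.465 kb. Mean levels of the 58 genes that passed the filter on low counts ran from 1.17 to 794 CPM per kb, with a median of 119, and the 10 highest genes by CPM held 47.7% of all histone CPM. HIST1H1C was the highest at 794 CPM per kb, followed by HIST1H4E at 654, HIST1H3B at 531 and HIST1H1E at 499 CPM per kb. HIST1H1T, the testis H1 gene, did not pass the filter and was not tested.

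TAK-981 was compared with Veh to ask what inhibition of SUMOylation did to histone RNA in each line. In MM1S, 52 of the 58 tested histone genes fell and 2 rose, where 23.7% of all 14215 genes tested were called lower and 25.2% higher. Their median log2 fold change was -1.06, against 0.04 over all genes. In MM1R, 53 fell and 1 rose, beside 27.6% of all genes lower and 25.8% higher, and the median was -0.85 against 0.00. Every class took part: in MM1S 5 of 5 H1, 12 of 13 H2A, 17 of 18 H2B, 10 of 11 H3 and 8 of 11 H4 genes fell, and in MM1R 5, 12, 16, 10 and 10 of them. A call was made at a Benjamini-Hochberg adjusted p under 0.05 in edgeR's quasi-likelihood test.

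Among the H1 genes, HIST1H1B stood at 162 and 163 CPM in MM1S Veh and at 53.9 and 69.2 CPM with TAK-981. In MM1R it stood at 230.3 and 229 CPM with Veh and at 84.7 and 88.0 CPM with TAK-981. The groups did not overlap in either line, and the log2 fold change of MM1S was -1.40 ± 0.13 (SE, adjusted p = 4.29e-07) and that of MM1R -1.41 ± 0.13 (adjusted p = 3.44e-07). HIST1H1C, the most abundant histone RNA here and one known to be made also in a poly(A) form, fell by less. It stood at 585 and 583 CPM in MM1S Veh and at 425 and 512 CPM with TAK-981, a log2 fold change of -0.32 ± 0.10 (adjusted p = 0.0129). That call was lost without TAK replicate 1 (-0.19, adjusted p = 0.145), without Veh replicate 1 (-0.32, adjusted p = 0.0582) and without Veh replicate 2 (-0.32, adjusted p = 0.0513). In MM1R its log2 fold change was -0.35 ± 0.10 (adjusted p = 0.00602), and -0.32 (adjusted p = 0.0509) without MM1R TAK replicate 1.

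In the core classes, HIST1H3B, which encodes H3.1, stood at 313 and 297 CPM in MM1S Veh and at 112 and 143 CPM with TAK-981, without overlap (log2 fold change -1.26 ± 0.12, adjusted p = 4.96e-07). In MM1R it stood at 451 and 461 CPM and then at 225 and 236 CPM (-0.98 ± 0.12, adjusted p = 5.72e-06). HIST1H2AE, an H2A gene, went from 144 and 140.5 CPM in MM1S Veh to 52.5 and 51.6 CPM with TAK-981 (-1.45 ± 0.07, adjusted p = 4.45e-12). The largest decreases among the called genes of MM1S were those of HIST1H3I (-1.82 ± 0.25), HIST2H2BF (-1.78 ± 0.09) and HIST1H3J (-1.67). HIST1H3I rested on few counts, 87 and 66 in MM1S Veh and 24 and 17 with TAK-981. HIST1H4E, the H4 gene with the highest mean CPM, stood at 276 and 283 CPM in MM1S Veh and at 198 and 270.0 CPM with TAK-981, so that replicate 2 lay close to Veh and the gene did not pass (-0.25 ± 0.14, adjusted p = 0.153). In MM1R HIST1H4E fell by 0.63 on the log2 scale (SE 0.14, adjusted p = 0.00181).

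The abundant genes of each class are taken next. HIST1H1E, a linker histone gene, stood at 435 and 443 CPM in MM1S Veh and 276 and 338 CPM with TAK-981, and HIST1H1D at 209.7 and 197 and then 84.4 and 112 CPM. Their log2 fold changes in MM1S were -0.52 ± 0.10 and -1.05 ± 0.12. In H2A, HIST1H2AG went from 167 and 160.0 to 63.6 and 75.9 CPM (-1.23 ± 0.10), and in H2B, HIST1H2BC went from 171 and 166 to 86.8 and 87.2 CPM (-0.96 ± 0.07). HIST1H2BG gave -1.09 ± 0.07 and HIST1H2BH -1.36 ± 0.09. In H3, HIST1H3H gave -0.88 ± 0.10 and HIST1H3D -1.06 ± 0.10, and in H4, HIST1H4C gave -1.04 ± 0.09 and HIST1H4D -0.85 ± 0.13. In these genes the TAK-981 libraries lay below Veh. The corresponding values in MM1R were -0.61 ± 0.10 for HIST1H1E, -0.84 ± 0.09 for HIST1H2AG, -0.81 ± 0.07 for HIST1H2BC, -0.72 ± 0.10 for HIST1H3H and -1.01 ± 0.09 for HIST1H4C, all at an adjusted p under 0.05 (edgeR).

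HIST4H4, an H4 gene that lies alone on chromosome 12, rose with TAK-981. It stood at 39.6 and 36.3 CPM in MM1S Veh and at 54.8 and 51.0 CPM with TAK-981 (log2 fold change 0.48 ± 0.07, adjusted p = 2.64e-05). In MM1R it stood at 37.5 and 37.6 CPM with Veh and at 48.2 and 49.0 CPM with TAK-981 (0.37 ± 0.07, adjusted p = 0.000299). The TAK-981 libraries lay above the Veh libraries in both lines. HIST1H3E, an H3.1 gene of the HIST1 cluster, was low but showed the same sign, at 3.24 and 3.43 CPM in MM1S Veh and 4.77 and 5.25 CPM with TAK-981 (0.59 ± 0.17, adjusted p = 0.00941). DESeq2 gave an adjusted p of 0.0898 for it, and the call was lost without MM1S Veh replicate 1 (0.54, adjusted p = 0.0705) and without MM1S TAK replicate 2 (0.51, adjusted p = 0.0597). In MM1R its log2 fold change was 0.39 ± 0.23 (adjusted p = 0.161). HIST3H2A, at 1.03 to 1.13 CPM in MM1S Veh and 1.49 to 1.87 CPM with TAK-981, had a log2 fold change of 0.64 ± 0.33 (adjusted p = 0.121).

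**Figure D2:**
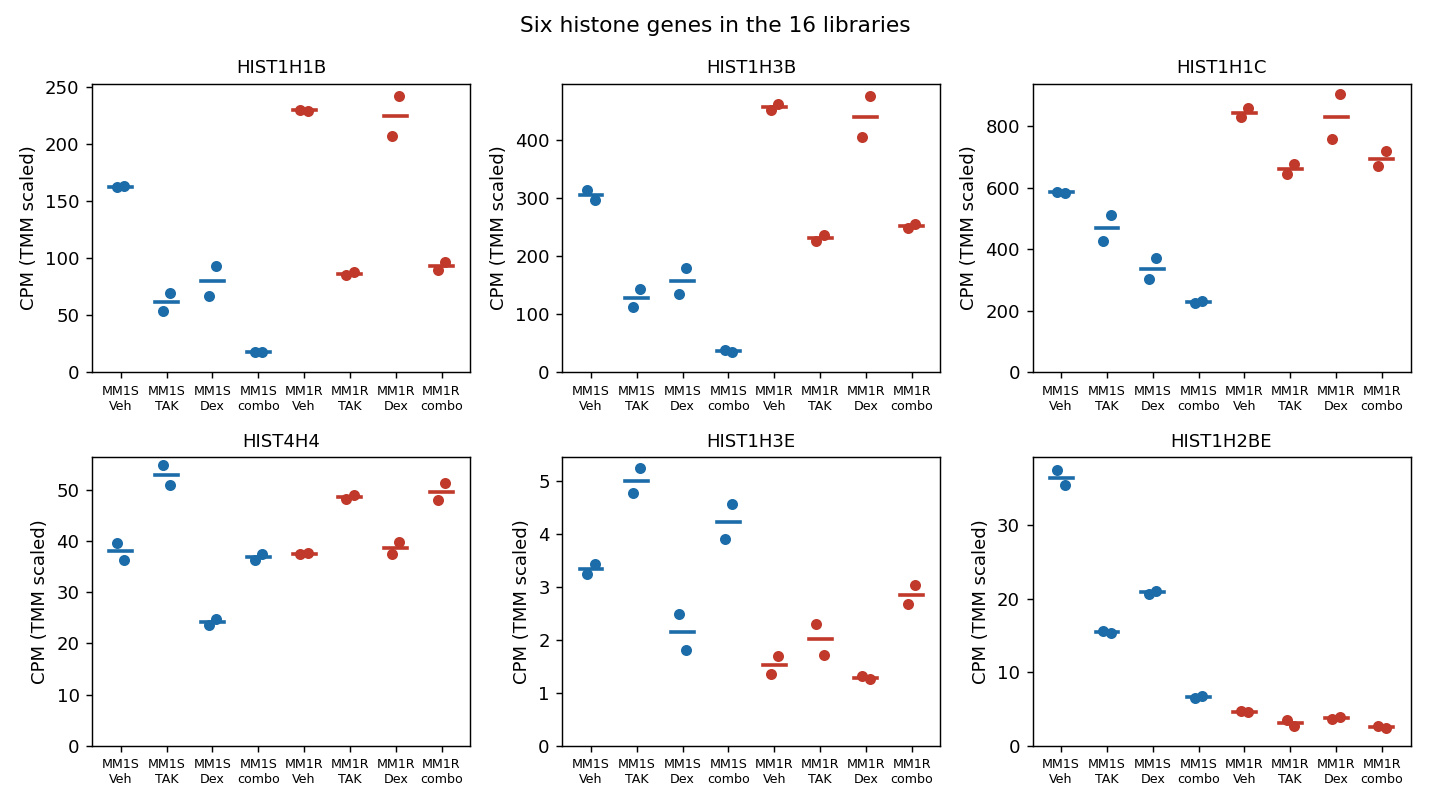
CPM (y axes) of 6 histone genes in each library by cell line and treatment (x axes); points are libraries and bars are means of 2. HIST1H1B and HIST1H3B were lowest in MM1S combo, HIST4H4 and HIST1H3E were higher with TAK-981 than with Veh in MM1S, and HIST1H2BE was at 35.5 to 37.5 CPM in MM1S Veh and 4.54 to 4.67 CPM in MM1R Veh.

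Dex was compared with Veh in both lines. In MM1S, 53 of the 58 tested genes fell and 0 rose, beside 21.5% of all genes lower and 20.8% higher, and the median log2 fold change was -0.87 against 0.01 over all genes. The genes that did not pass in MM1S were HIST1H4E, HIST1H4F, HIST1H4J, HIST2H2BC and HIST3H2A. In MM1R, edgeR called 0 of the 58 genes, as it called 0% of all genes lower and 0% higher. An unadjusted p under 0.05 was found by edgeR for 0 of the 58, beside 395 of all 14215 genes. That count is near the share over all genes and is not a result about the histone genes. DESeq2 called 0 of the 58, and their median was -0.03. The difference between the lines was tested as an interaction, a comparison added after the data were seen. The response to Dex differed between the lines for 51 of the 58 genes, all with a less negative fold change in MM1R, beside 15.0% of all genes called in that direction and 13.1% in the other. The median interaction was 0.85.

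Among the genes behind these counts, HIST1H1B stood at 66.3 and 93.2 CPM in the MM1S Dex libraries, below Veh (-1.03 ± 0.13, adjusted p = 1.31e-05), and at 208 and 242 CPM in the MM1R Dex libraries, on either side of MM1R Veh. HIST1H1C stood at 301 and 372 CPM in MM1S Dex, below all TAK-981 libraries of MM1S, with a log2 fold change from Veh of -0.80 ± 0.10 (adjusted p = 6.27e-06). HIST4H4 fell with Dex in MM1S, to 23.6 and 24.8 CPM (-0.65 ± 0.08, adjusted p = 1.75e-06), whereas it stood at 37.4 and 39.9 CPM in MM1R Dex. The largest decrease among the called genes was that of HIST3H2BB, an H2B gene of chromosome 1, from 1.83 and 1.85 CPM to 0.518 and 0.403 CPM (-1.98 ± 0.31, adjusted p = 4.89e-05), and its interaction was 2.27 ± 0.42 (adjusted p = 0.000501). Within the Dex groups the libraries differed: replicate 2 lay above replicate 1 for 49 of 58 genes in MM1S, by a median of 0.29 on the log2 scale, and for 54 of 58 genes in MM1R, by a median of 0.20. Without MM1S Dex replicate 1 the MM1S median was -0.75, and without replicate 2 it was -1.09. In MM1R the median was 0.06 without Dex replicate 1 and -0.14 without replicate 2, so that its sign turned, with 0 genes called in either case.

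The combo was compared with Veh and with each agent alone; these comparisons share libraries and their values are given side by side. Against Veh, 53 of the 58 tested genes fell in MM1S and 0 rose, beside 29.5% of all genes lower and 30.8% higher, with a median log2 fold change of -2.09. In MM1R 53 fell and 2 rose (HIST1H3E and HIST4H4), beside 26.7% lower and 24.8% higher, with a median of -0.78. Against TAK-981 alone, 47 genes fell and 0 rose in MM1S, beside 20.6% lower and 14.5% higher (median -0.99). In MM1R 0 genes were called against TAK-981 by edgeR, beside 0% lower and 0% higher of all genes. An unadjusted p under 0.05 was found by edgeR for 1 of the 58, beside 214 of all 14215 genes, a similar share. DESeq2 called 0 of the 58, and their median was 0.07. Against Dex alone, 46 genes fell and 2 rose in MM1S, beside 25.4% lower and 22.2% higher (median -1.21), and 52 fell and 2 rose in MM1R, beside 25.3% lower and 23.1% higher (median -0.73).

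**Figure D3:**
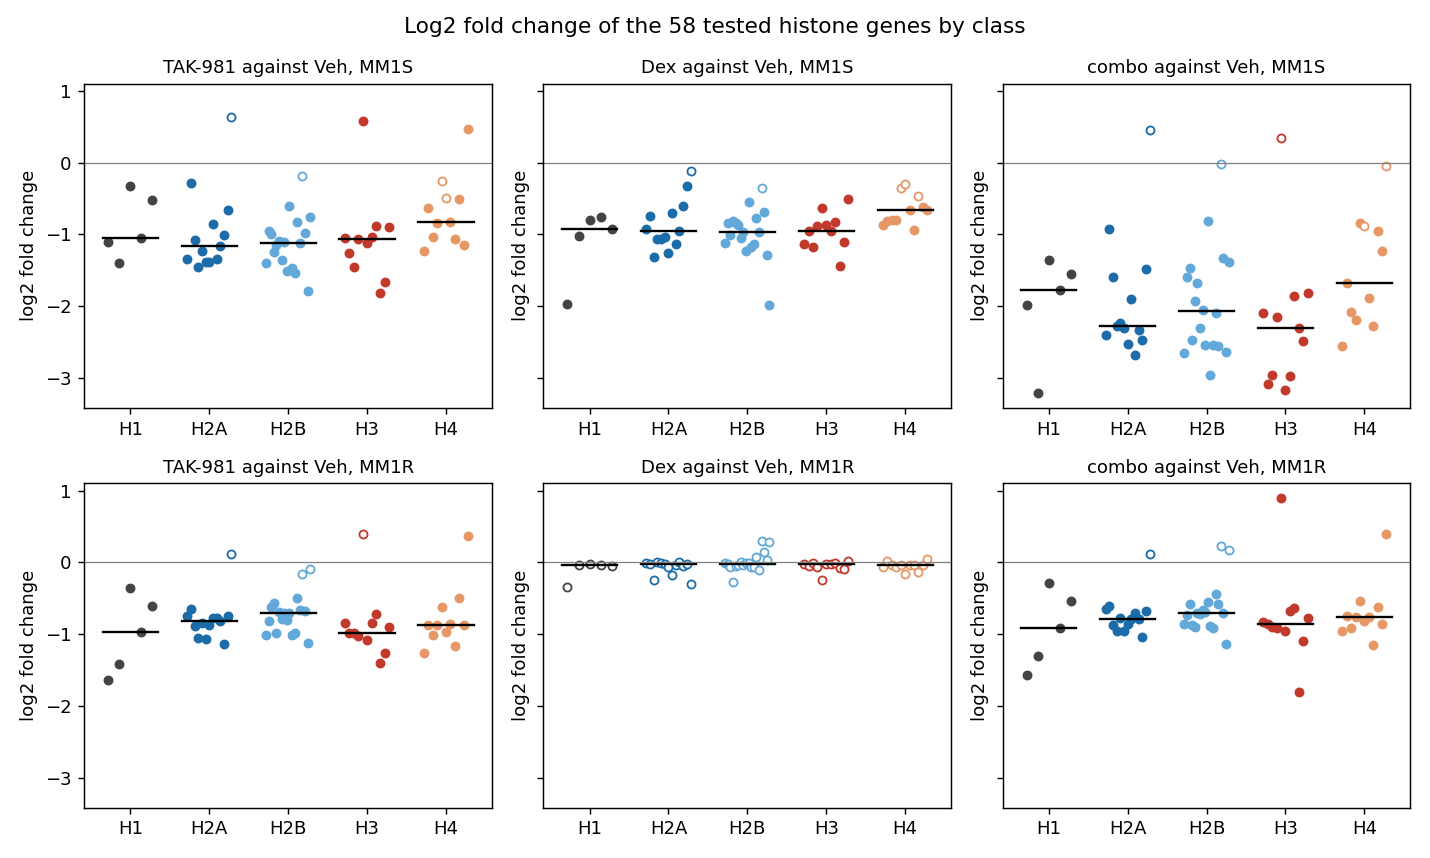
Log2 fold change from Veh (y axes) of the 58 tested histone genes by class (x axes), for each treatment and line. Filled points passed an adjusted p under 0.05, open points did not, and bars are class medians; the class medians in MM1S combo ran from -2.30 for H3 to -1.67 for H4, and 0 points passed for Dex in MM1R.

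The classes did not move by the same amount in MM1S combo. Class medians were -2.30 for H3, -2.27 for H2A, -2.07 for H2B, -1.77 for H1 and -1.67 for H4. H3 genes held 19.8% and 20.2% of histone CPM in MM1S Veh and 12.5% and 12.3% in the combo, and H4 genes went from 18.6% and 18.8% to 24.3% and 23.2%. In MM1R the H3 share was 21.0% and 21.5% with Veh and 19.7% and 19.4% with the combo, and the H4 share was 17.6% in both Veh libraries and 17.8% and 17.4% with the combo. The H1 share was 23.1% and 23.2% in MM1S Veh and 27.3% and 27.2% in the combo, and 24.1% and 24.2% in MM1R Veh and 26.8% and 27.5% in the combo. In MM1S combo the H3 share was thus lower and the H1 and H4 shares higher than in Veh. In MM1R combo the H3 share was lower, the H1 share higher and the H4 shares overlapped those in Veh. These shares were not tested. They are shares of summed CPM, so abundant genes such as HIST1H1C, HIST1H1E and HIST1H4E weigh most, and they do not describe each gene of a class. Log2 fold changes in MM1S combo ran from -3.21 to -1.36 in H1 and from -2.55 to -0.04 in H4. HIST1H4E had 5873 and 5517 raw counts in MM1S Veh and 2632 and 2731 in the combo. HIST1H4D had 4527 and 4067, and then 754 and 831.

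The genes with the largest decreases were HIST1H1B, HIST1H3F and HIST1H3B. HIST1H1B stood at 17.3 and 17.8 CPM in MM1S combo, below every other library (-3.21 ± 0.15 from Veh, adjusted p = 5.93e-11), and at 89.4 and 96.4 CPM in MM1R combo (-1.31 ± 0.13, adjusted p = 7.52e-07). HIST1H3F, an H3.1 gene, went from 135 and 153 CPM in MM1S Veh to 15.4 and 16.5 CPM (-3.17 ± 0.17, adjusted p = 4.74e-10). HIST1H3B stood at 37.3 and 34.7 CPM in MM1S combo (-3.08 ± 0.13, adjusted p = 1.77e-11) and at 248 and 254 CPM in MM1R combo (-0.86 ± 0.12, adjusted p = 2.24e-05). HIST1H1C, at 224 and 232 CPM in MM1S combo, fell by 1.36 on the log2 scale (SE 0.10, adjusted p = 4.42e-09). HIST4H4 stood at 36.3 and 37.5 CPM in MM1S combo, overlapping Veh (-0.04 ± 0.08, adjusted p = 0.648), and at 48.0 and 51.2 CPM in MM1R combo (0.40 ± 0.07, adjusted p = 0.000139). Among H4 CPM the HIST4H4 share was 3.52% and 3.24% in MM1S Veh, 8.49% and 6.27% with TAK-981 and 8.97% and 9.64% with the combo. In MM1R it was 2.63% and 2.59%, 6.04% and 5.77%, and 5.50% and 5.77% in the same order. HIST1H3E stood at 2.67 and 3.03 CPM in MM1R combo, above 1.36 and 1.69 CPM with Veh (0.90 ± 0.21, adjusted p = 0.00166).

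Whether TAK-981 and Dex acted on log2 levels in MM1S by more or less than the sum of their separate changes was tested as an interaction. It was called for 8 of the 58 genes, 6 with the combo lower than that sum and 2 with it higher, beside 9.48% of all genes lower and 5.47% higher, a share close to the background. The 6 lower genes were HIST1H1B (-0.78 ± 0.20, adjusted p = 0.0173), HIST1H3B (-0.87 ± 0.18), HIST1H3F (-1.19 ± 0.22), HIST1H3G (-0.99 ± 0.23), HIST2H2AB (-0.86 ± 0.17) and HIST2H2AC (-0.51 ± 0.11), and the 2 higher were HIST1H2BD (0.52 ± 0.10) and HIST2H2BF (0.43 ± 0.14). Among these 8, HIST1H3F had the interaction of largest size (adjusted p = 0.00292). The count rested on single libraries. It was 16 without MM1S Dex replicate 1, where 20.5% of all genes were called in either direction, and 15 without MM1S TAK replicate 1, where 25.6% were, against 14.9% with every library. The median interaction of -0.08 turned to 0.10 without MM1S Dex replicate 2. The calls of HIST1H1B (-0.59, adjusted p = 0.0951) and HIST1H3G (-0.78, adjusted p = 0.127) were lost without MM1S TAK replicate 2, and that of HIST1H1B also without MM1S Veh replicate 1 (-0.78, adjusted p = 0.0592) and without MM1S combo replicate 1 (-0.76, adjusted p = 0.0637). The HIST2H2BF call, at an adjusted p of 0.0477, was lost in 16 alternatives, with adjusted p from 0.0516 to 0.139, among them each of the 8 that left out an MM1R library.

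The change with TAK-981 was also compared between the lines. This interaction was called for 13 of 58 genes, all with a less negative change in MM1R, beside 3.19% of all genes called in that direction and 0.978% in the other. The 13 were 8 of 18 H2B, 4 of 13 H2A and 1 of 11 H3 genes, with 0 of 5 H1 and 0 of 11 H4 genes. The MM1S TAK libraries differed most in the classes without calls. Replicate 2 lay above replicate 1 by a median log2 of 0.36 in H1 and 0.31 in H4. The gap was 0.14 in H3, 0.07 in H2A and 0.02 in H2B. Whether the class pattern depends on this gap was not tested. HIST1H2BJ stood at 72.0 and 69.0 CPM in MM1S Veh and 24.4 and 24.9 CPM with TAK-981, and at 106 and 107 CPM and then 58.2 and 64.2 CPM in MM1R. Its interaction was 0.72 ± 0.10 (adjusted p = 0.00056), and those of HIST2H2BF (0.65 ± 0.12, adjusted p = 0.00431), HIST1H2BM (0.55 ± 0.11, adjusted p = 0.00526), HIST1H2BH (0.58 ± 0.12, adjusted p = 0.011) and HIST1H2AE (0.40 ± 0.09, adjusted p = 0.0165) were next by adjusted p. The HIST1H2BH call was lost without MM1S Veh replicate 1 (0.46, adjusted p = 0.0909), MM1R Veh replicate 2 (0.54, adjusted p = 0.0709) or MM1R TAK replicate 1 (0.58, adjusted p = 0.0582). The HIST1H2AE call was lost without MM1S Veh replicate 1 (0.38, adjusted p = 0.0815), MM1R Veh replicate 1 (0.41, adjusted p = 0.0628), MM1R Veh replicate 2 (0.40, adjusted p = 0.0831) or MM1R TAK replicate 2 (0.36, adjusted p = 0.0885). HIST1H1B, in contrast, had an interaction of -0.01 ± 0.18 (adjusted p = 0.985). The count was 4 without MM1S Veh replicate 1 and 5 without replicate 2, 5 without MM1R Veh replicate 1 and 3 without replicate 2, and 4 without MM1R TAK replicate 1 and 6 without replicate 2; the share of all genes called in these 6 fits ran from 1.37% to 2.20%, against 4.16% with every library. Of the 47 tested genes with a promoter window, the interaction was called for 8 of 19 with the octamer and 2 of 28 without it, with medians of 0.39 and 0.00, a split chosen after the data were seen. Class moves with the octamer: within H2B the counts were 4 of 8 with it and 1 of 4 without it, and within H2A they were 4 of 10 and 0 of 2. Since 10 of the 19 genes share windows in pairs, they are not independent, and the octamer's part in the result was not tested.

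**Figure D4:**
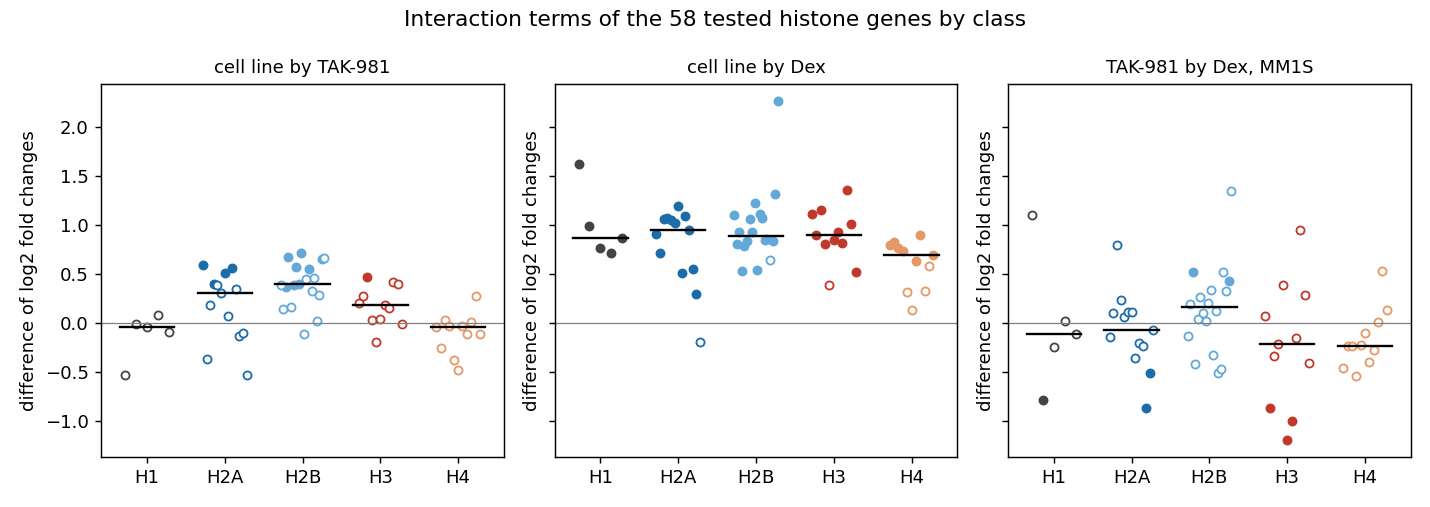
Interaction terms (y axes, differences of log2 fold changes) of the 58 tested histone genes by class (x axes), for cell line by TAK-981, cell line by Dex and TAK-981 by Dex in MM1S. Filled points passed an adjusted p under 0.05 and bars are class medians; 13, 51 and 8 points passed.

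Without treatment, the 2 lines were compared to show where they started. In Veh, 45 of the 58 genes were higher in MM1R and 3 lower, beside 25.6% of all genes higher and 22.6% lower, and the median log2 difference of MM1R from MM1S was 0.45. All 5 tested H1 genes, 10 of 13 H2A, 14 of 18 H2B, 10 of 11 H3 and 6 of 11 H4 genes were higher in MM1R. HIST1H1A, an H1 gene expressed at a low level, stood at 1.36 and 1.90 CPM in MM1S Veh and at 4.47 and 3.83 CPM in MM1R Veh (1.35 ± 0.25, adjusted p = 0.000213). HIST1H4F was near the detection limit in MM1S with 6 and 3 counts in the Veh libraries and reached 35 and 31 counts in MM1R Veh (2.59 ± 0.38, adjusted p = 2.4e-05).

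The 3 genes lower in MM1R were HIST1H2BE, HIST1H3E and HIST3H2BB. HIST1H2BE, at 26184024 to 26184458 on chromosome 6 (hg19), stood at 37.5 and 35.5 CPM in MM1S Veh and at 4.67 and 4.54 CPM in MM1R Veh, a log2 difference of -2.99 ± 0.10 (adjusted p = 9.35e-14). It held 2.69% and 2.65% of H2B CPM in MM1S Veh and 0.254% and 0.251% in MM1R Veh, and no library of MM1R under any treatment reached the lowest MM1S library, at 6.50 CPM. Within MM1S it fell with TAK-981 (-1.24 ± 0.09, adjusted p = 1.64e-09), Dex (-0.81 ± 0.09, adjusted p = 4.34e-07) and the combo (-2.47 ± 0.10, adjusted p = 2.15e-13) along with the other H2B genes. Of its 50-base words, 3.63% are shared with another histone gene in GENCODE. HIST1H3E, at 3.24 and 3.43 CPM in MM1S Veh and 1.36 and 1.69 CPM in MM1R Veh, was also lower (-1.12 ± 0.21, adjusted p = 0.000223). HIST3H2BB, at 1.83 and 1.85 CPM in MM1S Veh and 0.703 and 1.15 CPM in MM1R Veh, differed by -0.98 ± 0.26 (adjusted p = 0.0041), a call lost in DESeq2 (adjusted p = 0.0738) and without MM1R Veh replicate 1 (-0.67, adjusted p = 0.0745).

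The genes followed each other closely over the 16 libraries. The Pearson correlation of a gene's log2 CPM with that of the other histone genes summed had a median of 0.981 over the 58 genes and was above 0.9 for 49 of them; it is given as a description, since the libraries share lines, treatments and scaling. The lowest values were -0.71 for HIST1H3E, -0.54 for HIST3H2A, -0.32 for HIST2H2BC, -0.22 for HIST1H2BE, 0.11 for HIST4H4 and 0.48 for HIST3H2BB. The 5 other genes whose log2 CPM was most like that of the summed histone genes over the 16 libraries were CENPW (r = 0.995), GMNN (0.995), CENPN (0.994), EXO1 (0.993) and ANXA5 (0.993).

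Genes of S phase and of the histone pathway were taken from written lists. Of 35 S phase genes, 34 fell with TAK-981 in MM1S and 34 in MM1R, with median log2 fold changes of -1.43 and -1.07, and 1 rose in each line. With Dex 35 fell in MM1S (median -0.90) and 0 were called in MM1R, and with the combo 34 fell in MM1S (median -2.31) and 34 in MM1R (median -1.01). Of 21 G2/M genes, all 21 fell with TAK-981 in MM1S (median -1.26) and in MM1R (median -0.86), with Dex in MM1S (median -1.01) and with the combo in MM1S (median -2.59) and MM1R (median -0.83). In MM1R Veh against MM1S Veh, 32 S phase and 19 G2/M genes were higher, beside 25.6% of all genes. Of all genes tested, 23.7% fell with TAK-981 in MM1S and 27.6% in MM1R. With Dex 21.5% fell in MM1S and 0% in MM1R, and with the combo 29.5% in MM1S and 26.7% in MM1R. The ratio of summed histone CPM to summed S phase CPM was 1.61 and 1.60 in MM1S Veh, 1.51 and 1.65 with Dex, 2.02 and 2.04 with TAK-981 and 2.12 and 2.09 with the combo. In MM1R it was 1.46 and 1.42 with Veh, 1.40 and 1.47 with Dex, 1.66 and 1.72 with TAK-981, and 1.73 and 1.72 with the combo. The libraries with TAK-981 thus lay above those without it in each line. The S phase sum includes SLBP, which rose with TAK-981 and so lowers the ratio there. In MM1S, leaving SLBP out would raise the ratio more with TAK-981 alone than with the combo. Ratios without SLBP were not tabulated, so the printed order of TAK-981 alone and the combo in MM1S is not a result.

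**Figure D5:**
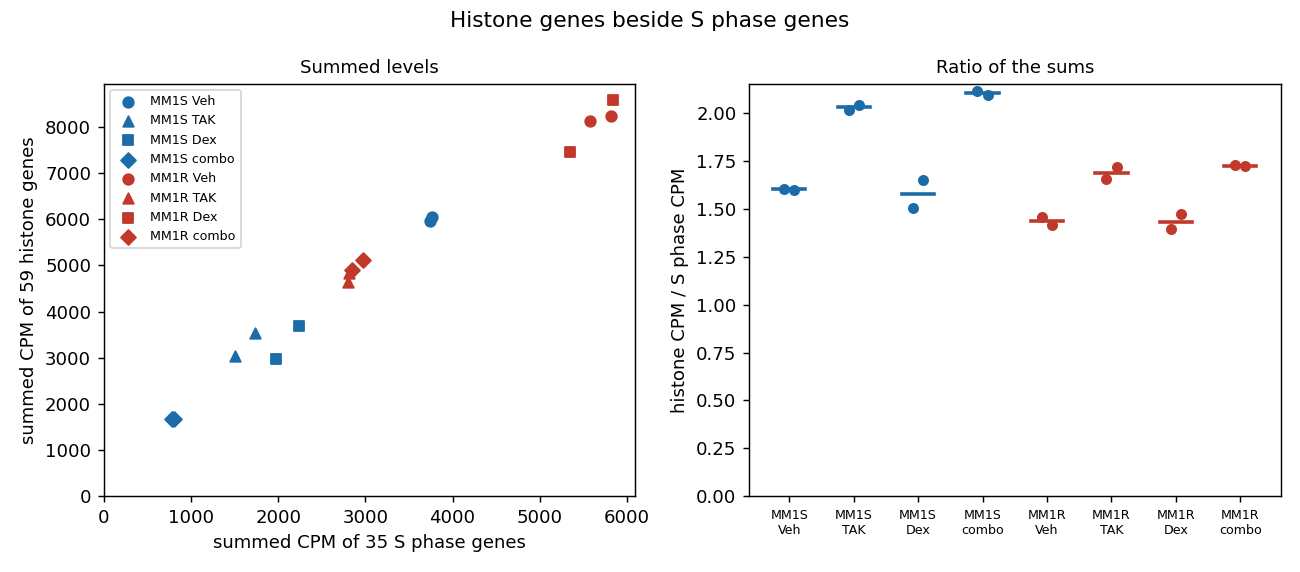
Left, summed CPM of the 59 histone genes (y axis) against that of 35 S phase genes (x axis) in the 16 libraries; right, their ratio by group, with points for libraries and bars for means of 2. The ratio was 1.51 to 1.65 in MM1S without TAK-981 and 2.02 to 2.12 with it, SLBP being among the S phase genes.

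The S phase gene that rose with TAK-981 was SLBP, which is also on the list of histone mRNA processing. SLBP stood at 118 and 116 CPM in MM1S Veh, at 282 and 296 CPM with TAK-981, at 75.5 and 86.3 CPM with Dex and at 107 CPM in both combo libraries. In MM1R it stood at 151 CPM in both Veh libraries, at 247 and 237 CPM with TAK-981, at 143 and 151 CPM with Dex and at 249 and 253 CPM with the combo. The TAK-981 libraries lay above Veh in both lines, with a log2 fold change in MM1S of 1.31 ± 0.06 (adjusted p = 1.13e-11) and one in MM1R of 0.68 ± 0.06 (adjusted p = 6.6e-08). The log2 fold change of the MM1S combo from Veh was -0.12 ± 0.06 (adjusted p = 0.104), and that of the MM1R combo was 0.73 ± 0.06 (adjusted p = 2.58e-08). The interaction of TAK-981 with Dex on SLBP in MM1S was -0.90 ± 0.09 (adjusted p = 2.9e-06). SLBP is part of the summed S phase CPM used in the ratio above. In MM1S that sum was 3764 and 3743 with Veh, 1511 and 1733 with TAK-981 and 788 and 802 with the combo. SLBP thus held a larger part of the sum with TAK-981 than with Veh or the combo.

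The list of histone mRNA 3′ end processing and decay held 20 genes. With TAK-981, 13 fell and 1 rose in MM1S, beside 23.7% of all genes lower and 25.2% higher. In MM1R 13 fell and 2 rose with it, beside 27.6% and 25.8%. With Dex 6 fell and 2 rose in MM1S, beside 21.5% and 20.8%. The count of lower genes with Dex was near the share over all genes and is not a result about this list. With the combo 12 fell and 0 rose in MM1S, beside 29.5% and 30.8%. In MM1R 11 fell and 1 rose with the combo, beside 26.7% and 24.8%. CASP8AP2, which encodes FLASH, a factor of histone pre-mRNA cleavage, fell with TAK-981 in MM1S (-0.59 ± 0.09) and MM1R (-0.41 ± 0.09). Of 18 histone chaperones, 12 fell with TAK-981 in MM1S, 12 in MM1R, 12 with Dex in MM1S and 13 with the combo in MM1S. In the same order 2, 2, 1 and 3 rose, beside the shares of all genes just given for these comparisons. CHAF1B, a subunit of the chaperone CAF-1 that loads new H3 and H4 behind the fork, fell by 1.54 on the log2 scale with TAK-981 in MM1S (SE 0.09) and by 2.66 with the combo.

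The variants listed as replication-independent, whose mRNAs mostly carry poly(A) tails, were a separate list. Of 9 tested, 5 fell and 1 rose with TAK-981 in MM1S (median -0.40) and 5 fell and 2 rose in MM1R (median -0.35). Of all genes, 23.7% fell and 25.2% rose in MM1S, and 27.6% fell and 25.8% rose in MM1R. H2AFZ, encoding H2A.Z, fell in MM1S with TAK-981 (-1.01), Dex (-1.01) and the combo (-1.74). H2AFJ, encoding the variant H2A.J, rose with TAK-981, the log2 fold change being 0.86 for MM1S (adjusted p = 1.42e-05) and 0.80 for MM1R (adjusted p = 4.87e-05), and with the combo in both. H3F3B, which encodes H3.3, had log2 fold changes of 0.17 in MM1S and -0.02 in MM1R with TAK-981 (adjusted p = 0.0651 and 0.801). Among the 6 clustered genes listed as having known poly(A) forms, the log2 fold changes with TAK-981 in MM1S were -0.28 for HIST1H2AC, -0.32 for HIST1H1C, -0.61 for HIST1H2BK, -0.83 for HIST1H4H, -0.98 for HIST2H2BE and -0.99 for HIST1H2BD, all called. The HIST1H2AC call was lost without MM1S Veh replicate 1 (-0.24, adjusted p = 0.131) and without MM1S TAK replicate 1 (-0.22, adjusted p = 0.122). With the combo in MM1S the 6 were at -0.92, -1.36, -0.82, -1.89, -1.33 and -1.47 in the same order.

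Close copies limit what single rows can say. For 4 genes (HIST1H2AJ, HIST1H4J, HIST1H4K and HIST2H3D) more than 50% of their 50-base words are found in another histone gene of GENCODE, and for 10 genes more than 10%. By their positions, 8 genes overlap another row on the same strand and 8 on the other strand, with HIST2H2AB, HIST2H2AC, HIST2H2BC, HIST2H2BE, HIST2H2BF and HIST2H3D in both sets, and whether counting used strand is not given in the sources used here. The values of these genes are therefore uncertain. Among the rows below the summed count, HIST2H2AA4, HIST2H3C and HIST2H4A had 3, 4 and 3 counts. Of their 50-base words, 97.1%, 100% and 100% are shared with another histone gene. Their low counts thus do not show that these genes were silent.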

How the data were processed

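Total RNA from 16 libraries (2 in each of 8 groups) was depleted of ribosomal RNA and sequenced. The authors deposited raw counts per gene; the submitters' processing notes name bcl2fastq 2.18.0.12, STAR 2.6.0, HTSeq 0.6.0, edgeR 3.28.1 and hg19. Whether counting used strand, and how reads matching several histone copies were handled, is not given in the sources used here, and reads dropped or split among copies would lower those rows. The labels do not say whether the 2 libraries of a group came from separate cultures, so p-values measure the spread between these libraries.

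Genes were filtered with filterByExpr, leaving 14215 of 23354, scaled with TMM factors and tested with the quasi-likelihood test of edgeR 4.0.16 (limma 3.58.1, R 4.3.3) in 1 fit of the 8 groups with 8 residual degrees of freedom. That fit gives each gene a spread shared by all groups, whereas replicates differed unequally. The chi-square per degree of freedom between their raw counts was 21.2 in MM1S TAK and 19.2 in MM1S Dex. It ran from 2.08 to 9.14 in the other groups. The SE of comparisons with MM1S TAK or MM1S Dex may thus be too small. P-values were adjusted over all tested genes by the Benjamini-Hochberg method, with a threshold of 0.05. CPM are counts scaled by library size and TMM factor; shares use raw counts. Correlations used log2 CPM. The procedure was tried on simulated data only for TAK-981 against Veh in MM1S, with a far smaller share of changed genes than here. Interactions and the other comparisons were not simulated. Named genes were the 4 most abundant of each class, the 3 largest called changes in each direction and comparison, up to 5 genes of the interactions by adjusted p, genes with poly(A) forms, the rows around the summed count of 50, and genes of the lists. The members and lists were chosen with earlier results of these data known. Alternatives were DESeq2 1.42.0, other scalings, no filter, the groups compared only, a replicate block, a summed count of 500, a log2 threshold of 1 and leaving out each library. Stem-loops came from GENCODE transcripts and promoters from RefSeq.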

Additional observations from a re-analysis of the deposited data

Results flagged for a closer look

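Responses that differed between the lines or between treatments are listed here with the test of the difference itself. The change with TAK-981 differed between MM1S and MM1R for 13 of the 58 tested histone genes, all less negative in MM1R, beside 3.19% of all genes called in that direction and 0.978% in the other, with log2 differences of 0.72 for HIST1H2BJ, 0.65 for HIST2H2BF, 0.58 for HIST1H2BH, 0.55 for HIST1H2BM and 0.40 for HIST1H2AE. The change with Dex differed for 51 genes, again less negative in MM1R, beside 15.0% and 13.1% of all genes, with 1.32 for HIST2H2BF, 1.23 for HIST1H2BJ, 1.08 for HIST1H2BM, 1.07 for HIST1H2AE and 0.93 for HIST1H2BD. In MM1S the change with TAK-981 differed between the absence and presence of Dex for 8 genes, 6 lower and 2 higher, beside 9.48% of all genes lower and 5.47% higher; this count is near the share over all genes and is not a result about the histone genes as a group. Its values were 0.52 for HIST1H2BD, -0.51 for HIST2H2AC, -0.86 for HIST2H2AB, -0.87 for HIST1H3B and -1.19 for HIST1H3F.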

How the results depend on the processing

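Under other scalings, DESeq2, fewer samples in the fit and the summed count of 500, the counts of called genes stayed within 1.5 times the reported ones and no value reversed. In another alternative, calls also had to exceed 1 on the log2 scale in either direction, so that fewer genes can pass. The share of all genes passing was not computed, so these counts cannot be set against a background. They were 35 for TAK-981 in MM1S, 15 for TAK-981 in MM1R and 20 for Dex in MM1S. The combo in MM1R gave 7, combo against TAK-981 in MM1S 29 and combo against Dex in MM1R 7. Between the lines in Veh the count was 4. Among the interactions, the counts were 0 for line by TAK-981, 1 for TAK-981 by Dex and 18 for line by Dex. Without the filter on low counts the first 2 of these interactions gave 21 and 15 genes, with 6.53% and 13.3% of all genes called. Leaving out single libraries gave 3 to 17 and 6 to 16. The medians then ran from -1.16 to -0.96 for TAK-981 in MM1S. The cause was not tested. Leaving out the rows of HIST2H2AA, HIST2H3 and HIST2H4 removed only HIST2H3D, with 6823 counts in all. The histone share was then 0.171% in MM1S combo and 0.802% in MM1R Veh. HIST1H2AJ, HIST1H4J and HIST1H4K were kept, so this does not test the weight of close copies. Of the values of named genes, 7593 kept their direction and side of the threshold and 135 lost the threshold, 118 of them on leaving out a library.

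Replicate numbers are shared by all groups, but no label says that they mark a pair. Deviations of same-numbered libraries correlated at 0.073 to 0.621 over 9741 genes, and at -0.352 to 0.412 over the tested histone genes. With the replicate block, 20 genes were called for line by TAK-981 and 16 for TAK-981 by Dex, while the share of all genes called went from 4.16% to 14.5% and from 14.9% to 25.2%; the counts of the other comparisons stayed within 1.5 times. With 2 libraries a group, small changes and genes of few counts, such as HIST1H4F and HIST3H2BB, are limited by depth.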
